A study of Drosophila melanogaster with 6 samples.

Results

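Cells carrying the same neuronal reporter were compared between an embryonic culture and the larval nervous system of the fruit fly Drosophila melanogaster. The comparison set all 4 arrays titled as the reporter-positive fraction of embryonic cell culture (EC_pos, arrays a to d) against the 1 array of the reporter-positive fraction of larval brain and ventral nerve cord (LB_pos), 5 of the 6 arrays of the series, over all 13966 probe sets that were not controls. In every group the cells carried dsRed1, a red fluorescent protein, fused directly to a 2.1 kb promoter of glutamic acid decarboxylase 1 (Gad1), were sorted by fluorescence, and gave total RNA. The sixth array, the reporter-negative larval fraction (LB_neg), entered the offset, the filter and the model as a group of its own, and is otherwise a side value. No reporter-negative fraction of the culture was analysed here, and the labels used here give no embryonic or larval age, strain, culture time or source of replicates. The p-values therefore measure the spread between the EC_pos arrays, which may be technical.

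Glutamic acid decarboxylase makes GABA, the main inhibitory transmitter of the fly brain, which is packed into vesicles by the transporter VGAT and received by chloride channels built from subunits such as Rdl. Embryonic neuroblasts divide a limited number of times and then pause, and larval neuroblasts resume division under a later set of timing factors, so that a larval brain holds mature neurons of embryonic origin beside immature neurons born in the larva. Cultures made from whole embryos can hold cells of many fates, among them muscle, fat body, epidermis, trachea and blood cells as well as neurons. EC_pos and LB_pos differ in stage of origin and also in having been cultured or not, and these effects cannot be told apart. In such bulk RNA, fewer cells of a type and less RNA per cell cannot be told apart either.

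EC_pos array a stood apart, so its own value stands beside those of b to d and counts of calls are given with and without it. Its ratio of 3' to 5' control signal was 866 for GAPDH, against 15.3 to 42.4 on arrays b to d and 8.9 on LB_pos. For actin the ratio was 148 on a, 72.5 on b, 19.5 on c, 20.2 on d and 58.3 on LB_pos. For eIF-4a it was 640, 46.3, 23.6 and 18.7 on a to d and 40.1 on LB_pos. Array a was highest for each transcript, while array b and LB_pos lay above c and d for actin and eIF-4a. The part of these ratios in the results was not tested. Log2 intensities of array a correlated with those of b, c and d at r between 0.588 and 0.707, whereas b, c and d reached 0.908 to 0.944 among themselves. The geometric mean of 9 hybridization controls was 3739 on array a, 1270 to 1562 on b to d and 7382 on LB_pos, and the part of this difference in the results was not tested. Differences are EC_pos minus LB_pos in log2(intensity + 53.6), where 53.6 is the 25th percentile of all intensities. Values under 53.6 are close to the floor of the scale and carry little order, and the offset understates changes of dim genes.

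The neuronal label was checked against marker genes. Gad1 itself had a dim probe set, at 22.2, 27.6, 37.1 and 39 on EC_pos arrays a to d, 54.8 on LB_pos and 22 on LB_neg, and was too dim to be tested, under 53.6 on every EC_pos array. VGAT stood at 967, 566, 458 and 409 on EC_pos, against 738 on LB_pos. The groups overlapped, and the difference was -0.59 ± 0.37 without array a (SE, limma adjusted p = 0.305). Of 11 general neuron markers, 9 were on the array, and their summed intensity was 3688, 9405, 4639 and 5005 on EC_pos arrays a to d, against 14006 on LB_pos and 11419 on LB_neg. The pan-neuronal elav, an RNA-binding protein, measured 59.8, 665, 595 and 299.6 on EC_pos and 1541 on LB_pos (adjusted p = 0.0574 without array a), and its relative fne was at 438, 1205, 763 and 1085 on EC_pos and 1315 on LB_pos (adjusted p = 0.502). The sodium pump subunit nrv3 was at 1293, 3813, 1231 and 1395 on EC_pos and 3332 on LB_pos, the microtubule protein futsch at 107, 1197, 233 and 321 on EC_pos and 2511 on LB_pos, and VGlut at 112, 117, 207 and 58 on EC_pos and 174 on LB_pos, none of which passed (adjusted p = 0.359, 0.0693 and 0.636 without array a). The other 2 tested markers passed as lower, ChAT at 601, 1490.4, 748 and 1122 on EC_pos and 3111 on LB_pos, and the vesicle protein nSyb at 53.2, 338, 334 and 279 on EC_pos and 1127 on LB_pos (adjusted p = 0.0499 and 0.023), so that 2 of 8 tested neuron markers passed as lower and 0 as higher. The active zone protein brp was too dim to test, and Syt1, Snap25 and Mhc had no probe set of their own. Neuron markers were thus present on all EC_pos arrays, with elav and nSyb close to the offset on array a.

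Markers of other cell types were present on EC_pos as well. Of 6 muscle markers, 4 were on the array, and their summed intensity was 2274, 7877, 10771 and 10148 on EC_pos arrays a to d, against 413 on LB_pos, where Mlc1, Mlc2 and bt lay under the offset. The 3 fat body markers summed to 3784, 4163, 4115 and 4438 on EC_pos and 723 on LB_pos. Most of the EC_pos sums was apolpp, and the other 2 markers did not pass. Lsp2 was at 415.5, 178, 350 and 308 on EC_pos and 281 on LB_pos. Fbp1 was lower on every EC_pos array, at 102, 92.3, 175 and 209, against 212 on LB_pos. The 3 single markers of epidermis and trachea summed to 2024, 8659, 12012 and 16479.5 on EC_pos, against 1784 on LB_pos. In each of these 3 sums every EC_pos array lay above LB_pos, with array a nearest to it. The muscle marker sls went against its sum and lay below LB_pos on every EC_pos array, without passing. The hemocyte sum, over 5 of 6 markers, was 2920.4, 558, 527 and 502 on EC_pos and 622 on LB_pos, and array a alone was high. Glial markers, 5 of 6 on the array, summed to 984, 968, 983 and 1037 on EC_pos and 1230.0 on LB_pos. The lower glial sum on EC_pos rested on gcm, since the other glial markers together were higher on every EC_pos array than on LB_pos. In the wider glial list 15 of 20 tested genes had a difference above 0 without array a. The median over all its genes on the array was 0.27, against -0.21 over all genes. The 5 neuroblast markers summed to 1699, 1122, 1034 and 1159 on EC_pos and 2922 on LB_pos, with mira the largest part on LB_pos. NimC1 and PPO1 lay under the offset on LB_pos. The glial factor repo was at 369, 262, 305 and 138 on EC_pos and 155 on LB_pos, the neuroblast factor dpn at 257, 141, 62.3 and 172 on EC_pos and 272 on LB_pos, and the hemocyte protein Hml at 214, 91.6, 97.5 and 118 on EC_pos and 230.2 on LB_pos, with adjusted p of 0.582, 0.246 and 0.191. Other members of these marker sets did pass. Among 5 tested glial markers gcm was lower (-2.34, adjusted p = 0.00742), among 5 tested neuroblast markers mira was lower (-2.09, adjusted p = 0.00968), and among 4 tested hemocyte markers PPO1 was higher (1.87, adjusted p = 0.0248) and Pxn lower (-1.75, adjusted p = 0.0405). The part of such cells in the gene groups described here was not tested.

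Array a decided how many probe sets passed limma's test. With all 4 EC_pos arrays 3 of 9635 tested probe sets passed at an adjusted p under 0.05 (0.0311%), 2 higher (0.0208%) and 1 lower (0.0104%), with 1301 (13.5%) at an unadjusted p under 0.05. Without array a 1359 passed (14.1%), and 3158 had an unadjusted p under 0.05 (32.8%). The 1359 were 830 higher in EC_pos (8.61%) and 529 lower (5.49%). With a kept, leaving out b, c or d left 0 calls in each of the limma fits, beside 866, 780.0 and 818 probe sets whose unadjusted p was under 0.05. By gene, with 1 probe set each, the 3 calls with all 4 arrays were 0.038% of 7892 tested genes (0.0253% higher and 0.0127% lower). Without array a 734 genes passed as higher (9.3%) and 417 as lower (5.28%), 14.6% together, and these shares are the background for the gene lists.

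The balance of directions depended on scaling. The median difference over all tested probe sets was -0.26 without array a, and the changes reported here stand on the deposited scale. With each array scaled to a common median, that median was -0.04 and the calls were 989 higher and 279 lower, a share of 78.0% higher against 61.1% on the deposited scale. The 3 fits of 2 EC_pos arrays gave 1528 higher and 1930 lower calls without a and b, 428 and 106 without a and c, and 698 and 354 without a and d, and 513 probe sets passed in all of them and with b, c and d together. A description that needs no estimate of spread counted 529 probe sets (5.49%) at least 1 log2 unit above LB_pos on each of the 4 EC_pos arrays and 567 (5.88%) at least 1 unit below it on each. This balance also turned with scaling, to 647 above and 304 below with a common median and 636 above and 479 below after quantile normalization. At 2 units these counts were 190 (1.97%) and 54 (0.56%), so that 190 of the 244 probe sets past 2 units on the deposited scale were higher in EC_pos.

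**Figure D1:**
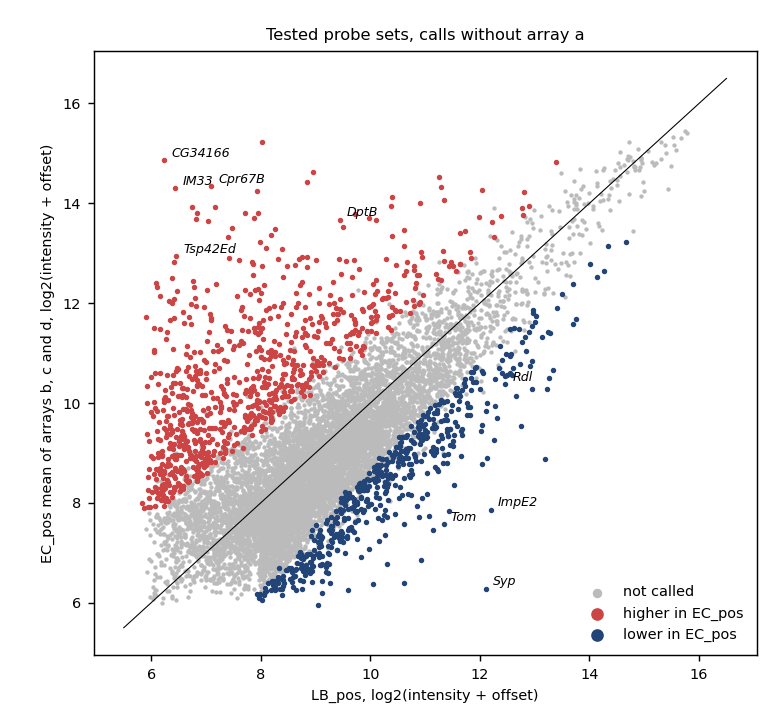
Mean log2(intensity + offset) of EC_pos arrays b, c and d (vertical axis) against LB_pos (horizontal axis) for the 9635 tested probe sets, with the 830 called higher in red and the 529 called lower in blue, and a line of equal values. IM33, CG34166, Cpr67B and Tsp42Ed lie far above the line, and Syp, ImpE2 and Tom far below it.

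In what follows, a gene that passed did so in limma's fit without array a at an adjusted p under 0.05, adjusted over all 9635 probe sets. List medians are taken over every member on the array, tested or not, without array a. Over all 10844 genes on the array that median was -0.21. With all 4 EC_pos arrays IM33, Tsp42Ed and Syp alone passed, so every other call described here rests on arrays b, c and d. Each fit of 2 EC_pos arrays had 1 residual degree of freedom and leaned on the spread that limma pools over probe sets. That pooled spread weighed as 295, 4.86 and 21.6 degrees of freedom without b, c or d, against 6.21 with all of them. Calls lost or gained in those fits may reflect this weight or the array left out, and which was not tested.

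Several immune-induced peptides were bright on EC_pos and dim on LB_pos. Of 54 listed genes, 28 were on the array and 26 were tested. Of these, 8 passed as higher and 0 as lower, the list median was 0.85, and 7 lay at least 1 unit above LB_pos on all 4 EC_pos arrays, beside 5.97% of all tested genes. The counts of higher genes were 12, 6 and 8 with array b, c or d also left out. IM33, an immune-induced peptide, was at 14609.6, 14947, 24353 and 22449.7 on EC_pos arrays a to d, against 32.9 on LB_pos and 20.4 on LB_neg. Listericin, an antibacterial peptide, was at 3767, 11225, 16606 and 19819 on EC_pos and 53.1 on LB_pos. In both genes every EC_pos array exceeded both larval arrays many-fold, and array a was the lowest of its group. The differences were 7.87 ± 0.37 (SE, adjusted p = 4e-05) and 7.18 ± 0.38 (adjusted p = 6.04e-05) without array a, and 7.75 ± 0.57 (adjusted p = 0.0181) and 6.68 ± 0.93 (adjusted p = 0.0846) with it.

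DptB, a diptericin active against Gram-negative bacteria, was at 16328, 13180.4, 13669.7 and 12086 on EC_pos and 641 on LB_pos. Mtk, the antifungal peptide metchnikowin, was at 2472, 3756, 5703 and 5628 on EC_pos, 193 on LB_pos and 15 on LB_neg. DptB was at similar intensity on all 4 EC_pos arrays, array a included, whereas Mtk was lowest on a. The differences without array a were 4.23 ± 0.28 for DptB and 4.34 ± 0.37 for Mtk (adjusted p = 0.000122 and 0.000345). PGRP-SB1, a secreted enzyme that cleaves bacterial peptidoglycan, was at 1756, 832, 2190.3 and 1712 on EC_pos and 24.7 on LB_pos. The serpin nec, which restrains the Toll pathway, was at 656, 1035, 1424 and 1021 on EC_pos and 83.7 on LB_pos. Both passed, with differences of 4.28 and 3.13. With all 4 arrays the adjusted p of Listericin, DptB, Mtk, PGRP-SB1 and nec lay between 0.0723 and 0.117, so that IM33 was the 1 member that passed there. IM33 lost that call when b, c or d was left out with a kept (adjusted p = 0.276, 0.236 and 0.092).

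Genes of chitin synthesis and modification had the highest median of the 45 lists. Of 30 listed genes, 28 were on the array and 27 tested, and 15 passed as higher and 0 as lower. The list median was 1.85, and 7 genes lay at least 1 unit above LB_pos on all 4 arrays. With array b, c or d also left out 18, 9 and 13 genes passed as higher, so the count fell most without c. Idgf4, a secreted chitinase-like growth factor, was at 1929, 7713, 8096 and 10323 on EC_pos and 280.3 on LB_pos. Gasp, a chitin-binding protein of the tracheal lining, was at 1207, 1361, 1332 and 1067 on EC_pos and 101 on LB_pos. Every EC_pos array exceeded LB_pos in both, Gasp at an even level and Idgf4 with array a lowest. Their differences were 4.70 ± 0.32 (adjusted p = 0.000128) and 3.07 ± 0.37 (adjusted p = 0.00158) without array a, and 4.17 and 3.06 with it (adjusted p = 0.15 and 0.0866).

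Other chitin genes were low on array a. The chitin-binding protein obst-E was at 433, 4848, 5543 and 6082 on EC_pos and 379.9 on LB_pos, so that array a was close to the larval value. The chitin deacetylase serp, which shapes tracheal tubes, was at 47.4, 1769, 4549 and 6792 on EC_pos and 276 on LB_pos, and array a lay below LB_pos. Both passed without array a, with differences of 3.67 and 3.55, and not with it (adjusted p = 0.438 and 0.675). A second, dimmer probe set of obst-E also passed as higher, and one of serp did not (adjusted p = 0.272). The chitin synthase Chs2 was at 231, 254, 609 and 661 on EC_pos and 19.9 on LB_pos, and obst-A at 1106, 2261, 2345 and 1741 on EC_pos and 236 on LB_pos. All EC_pos arrays exceeded LB_pos in both genes, with differences of 2.84 and 2.89. The calls of serp and Chs2 were lost when array c was also left out (adjusted p = 0.0672 and 0.0651).

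Cuticle structural proteins split into a few very bright genes and a majority without a call. Of 95 listed genes, 73 were on the array and 48 were tested, and 12 passed as higher and 0 as lower. The list median was -0.13, close to that of all genes, and 15, 5 and 9 genes passed with array b, c or d also left out. Cpr67B was at 1069, 12396, 24147 and 29436 on EC_pos and 82.8 on LB_pos, and Cpr47Eb at 1857, 9088, 17755 and 18229 on EC_pos and 61 on LB_pos. On both the spread within EC_pos was wide, with array a far under the other arrays and still above LB_pos. Cpr49Ac was even across arrays, at 2528, 2720.3, 3467 and 3408 on EC_pos and 396 on LB_pos, a difference of 2.85 ± 0.33 (adjusted p = 0.00135) without array a and 2.77 (adjusted p = 0.108) with it. Cpr11A and Cpr49Ad were high on b to d only, at 122, 2093, 1997 and 2235 on EC_pos and 126 on LB_pos for Cpr11A, and at 44.9, 974, 889.9 and 698 on EC_pos and 37.3 on LB_pos for Cpr49Ad. Array a lay close to LB_pos in both.

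A few genes that tan and colour cuticle were higher too. The tyrosine hydroxylase ple, which makes L-DOPA for both dopamine and cuticle tanning, was at 346, 2491, 4074 and 4885 on EC_pos and 145 on LB_pos. Pu, the GTP cyclohydrolase that makes the cofactor of ple, was at 2226, 1052, 1240.4 and 1429 on EC_pos and 289 on LB_pos. The pigment gene y was at 1833, 1071, 1086 and 1067 on EC_pos and 295 on LB_pos. All 3 were above LB_pos on every EC_pos array, and ple was lowest on array a whereas Pu and y were highest there. The differences were 4.23 ± 0.43, 1.91 ± 0.37 and 1.70 ± 0.36 without array a (adjusted p = 0.000724, 0.0132 and 0.0184), and with array a the adjusted p lay between 0.208 and 0.349. Pu and y lost the call when array c was left out too (adjusted p = 0.067 and 0.0741).

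Of 28 listed epidermal and tracheal factors, 22 were on the array and 17 tested, and 5 passed as higher and 0 as lower, with 10, 4 and 5 in the fits that also left out b, c or d. The zona pellucida domain protein pio, which ties epidermis to cuticle, was at 3253, 2082, 3452 and 3259 on EC_pos and 383 on LB_pos, a difference of 2.74 ± 0.39 (adjusted p = 0.00325). The apical polarity protein crb was at 961, 1263, 1555 and 1154 on EC_pos and 212 on LB_pos, and the planar polarity protein Vang at 467, 475, 339 and 333 on EC_pos, 26.2 on LB_pos and 395 on LB_neg. Vang was thus low on LB_pos alone among the 6 arrays. Array a lay within or near the range of the other EC_pos arrays in these 3 genes, and with it their adjusted p lay between 0.121 and 0.147. The summed single markers of epidermis and trachea, given above, include the chitin gene serp and so add no separate evidence. All 3 of them lay above the offset on LB_pos.

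**Figure D2:**
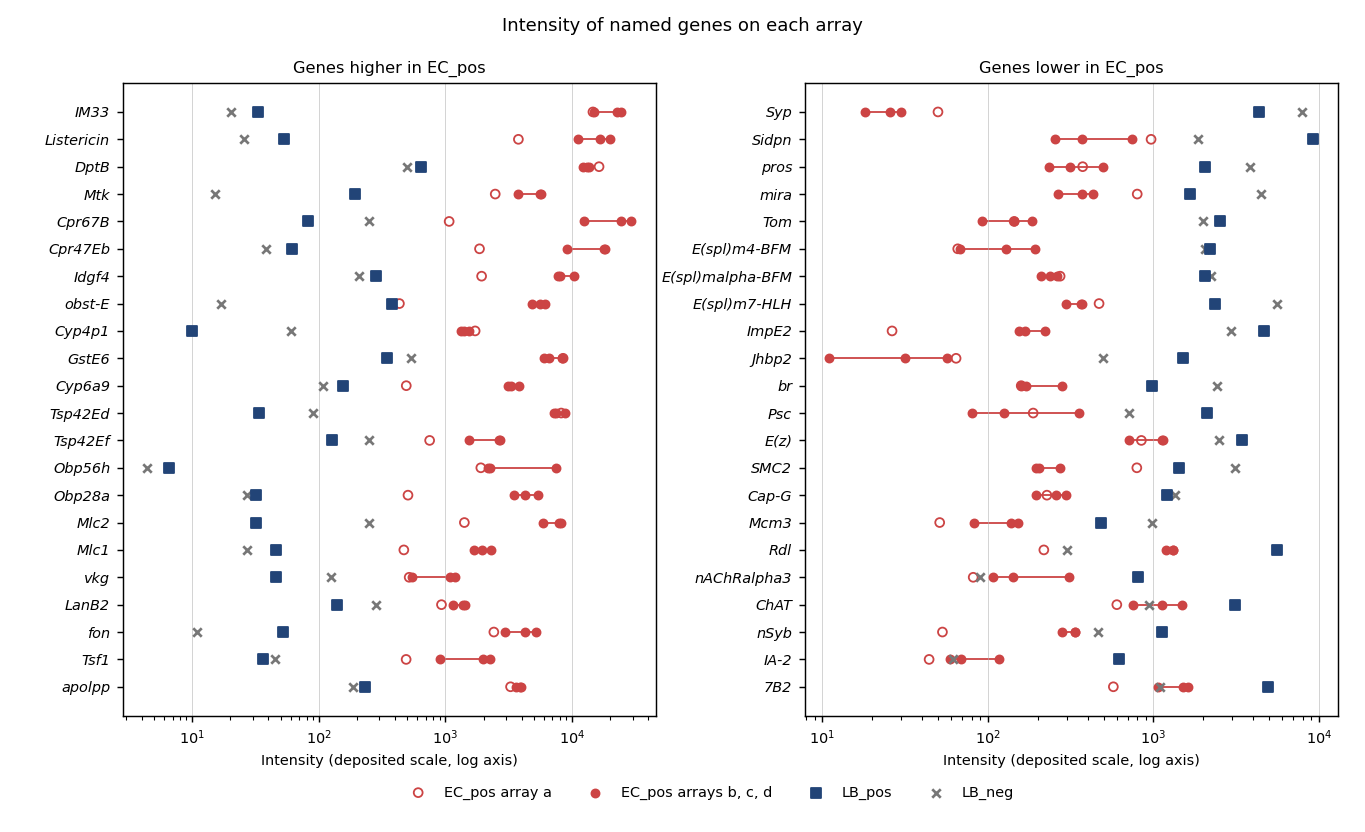
Deposited intensity (log axis) of named genes on each array, with genes higher in EC_pos at the left and genes lower in EC_pos at the right. Open circles are EC_pos array a, filled circles b, c and d joined by a line, squares LB_pos and crosses LB_neg. On the left the EC_pos arrays lie right of LB_pos, with obst-E on array a nearest to it, and on the right they lie left of it.

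About as many detoxification and metal-binding genes passed as higher in EC_pos as did not pass, and several were even across the 4 arrays. Of 40 listed genes, 37 were on the array and 33 tested, and 17 passed as higher and 0 as lower. The list median was 1.1, and 15 genes lay at least 1 unit above LB_pos on all 4 arrays. The counts were 23, 15 and 18 with array b, c or d also left out. The cytochrome P450 Cyp4p1 was at 1715, 1322, 1412 and 1547 on EC_pos, 9.9 on LB_pos and 60.7 on LB_neg. The glutathione S-transferase GstE6 was at 8495, 8343, 5952 and 6619 on EC_pos and 343 on LB_pos, and GstE9 at 1016, 1206, 1470.1 and 1662 on EC_pos and 57.9 on LB_pos. In all 3 genes array a fell in or near the range of the others. Without array a the differences were 4.54 ± 0.37 for Cyp4p1, 4.13 ± 0.33 for GstE6 and 3.74 ± 0.37 for GstE9 (adjusted p = 0.000307, 0.00025 and 0.000651), and with it 4.61, 4.21 and 3.62 (adjusted p = 0.061, 0.0723 and 0.0846).

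GstD2 was at 6645, 22819.7, 7995 and 8716 on EC_pos and 674 on LB_pos, with array b highest, and GstD3 at 2221, 9216, 7073 and 6555 on EC_pos and 638 on LB_pos. Cyp6a9, another P450, was at 490.3, 3805, 3114 and 3285 on EC_pos and 154 on LB_pos, with array a lowest. Each was above LB_pos on all 4 arrays, and the differences without array a were 4.01, 3.46 and 4.05. The Gst and Cyp6a genes lie in clusters of similar copies, and cross-hybridization between copies was not tested. Mdr65, an efflux pump of the blood-brain barrier, was at 179, 424, 433 and 312 on EC_pos and 19.4 on LB_pos, and passed with a difference of 2.59 ± 0.44 (adjusted p = 0.00742).

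Tetraspanins are membrane proteins with 4 spans that organise other proteins in membrane domains. Of 35 listed genes, 32 were on the array and 28 tested, 11 passed as higher and 0 as lower, and the list median was 0.48. With array b, c or d also left out, 12, 7 and 9 passed as higher, and 2 passed as lower without b. On all 4 EC_pos arrays 9 lay at least 1 unit above LB_pos and 1 at least 1 unit below. Tsp42Ed was at 8203, 7529, 7163 and 8745 on EC_pos arrays a to d, 33.9 on LB_pos and 90.5 on LB_neg, an even level within EC_pos. Its difference was 6.50 ± 0.48 with all 4 arrays (adjusted p = 0.0181) and 6.49 ± 0.32 without array a, and with a kept it did not pass without b, c or d (adjusted p = 0.276, 0.236 and 0.092). Tsp42Eg was similarly even, at 698, 712, 718 and 598 on EC_pos and 21.3 on LB_pos. Tsp42Ef and Tsp42El were lower on array a, at 749.9, 2707, 1524 and 2644 on EC_pos and 128 on LB_pos for Tsp42Ef, and at 2068, 3513, 5822 and 6843 on EC_pos and 369 on LB_pos for Tsp42El. Their neighbour Tsp42Ee, chosen after its values were seen, was bright on all arrays, at 22642, 15142, 14522 and 16245 on EC_pos, 6946 on LB_pos and 8308 on LB_neg. Its difference was the smallest of the 5, at 1.13 ± 0.26 (adjusted p = 0.0247, and 0.118 and 0.0767 when c or d was left out as well). The pair Tsp29Fa and Tsp29Fb, from another locus, differed by 2.21 and 3.51, and Tsp74F by 2.85.

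Odorant binding proteins are small secreted carriers, known from sensory organs and present in other tissues. Of 43 listed genes, 32 were on the array, 18 of them too dim to test, so that the list median over all 32 was -0.04. Of the 14 tested, 8 passed as higher and 0 as lower, with 9, 6 and 7 higher when b, c or d was left out as well. Obp56h was at 1902, 7426, 2174 and 2239.6 on EC_pos, 6.6 on LB_pos and 4.4 on LB_neg, with array b above the others. Obp28a was at 506, 5369, 3470.3 and 4257 on EC_pos and 31.9 on LB_pos, and Obp99c at 422, 1526, 1839.7 and 1907 on EC_pos and 75 on LB_pos. Array a was lowest in all 3 and above LB_pos in each. All 3 lay under the filter value of 197.35 on both larval arrays, so they were tested only through EC_pos. The differences without array a were 5.81 ± 0.67 for Obp56h, 5.67 ± 0.38 for Obp28a and 3.81 ± 0.36 for Obp99c (adjusted p = 0.00126, 0.000119 and 0.000498), and the adjusted p with it was 0.0866, 0.182 and 0.192. Obp56d and Obp56a differed by 3.96 and 3.63, and Obp99d was high on b to d alone, at 34.1, 886, 598 and 576 on EC_pos and 28.1 on LB_pos. The small secreted proteins EbpIII and Phk-3, which are not in this family, were also lowest on array a and above LB_pos on every EC_pos array. The chemosensory-type protein EbpIII was at 712, 5585, 5466 and 6365 on EC_pos and 29.7 on LB_pos, and Phk-3 at 2044, 19658, 24835 and 21346 on EC_pos and 408 on LB_pos.

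Several myosin, tropomyosin and troponin genes of the sarcomere were higher in EC_pos. Of 32 listed genes, 26 were on the array and 23 tested, and 12 passed as higher and 0 as lower. The list median was 1.34, 6 genes lay at least 1 unit above LB_pos on all 4 arrays, and 13, 7 and 12 passed with array b, c or d also left out, with 2 lower without b. Mlc2, the regulatory light chain of muscle myosin, was at 1410.2, 5908, 8179 and 7851 on EC_pos, 32.1 on LB_pos and 249 on LB_neg. Mlc1, the alkali light chain, was at 469, 1691, 2283 and 1934 on EC_pos and 45.6 on LB_pos. TpnC73F, a troponin C, was at 366, 358, 855 and 534 on EC_pos and 8.7 on LB_pos. The groups did not overlap, and array a was lowest for both light chains. The differences without array a were 6.41 ± 0.34, 4.34 ± 0.38 and 3.28 ± 0.53 (adjusted p = 6.04e-05, 0.000345 and 0.00567), and the adjusted p with it was 0.104, 0.15 and 0.121. Paramyosin (Prm) was at 53.8, 718, 1521 and 1139 on EC_pos and 38.7 on LB_pos, and tropomyosin 2 (Tm2) at 71.9, 291, 968 and 909 on EC_pos and 15.4 on LB_pos, so that array a was near the offset for both. The call of Tm2 was lost without array c (adjusted p = 0.0618). The kinase Strn-Mlck passed with its brightest probe set, by 3.09, and another probe set of the gene went the other way without passing (-0.72, adjusted p = 0.256). Of the 4 muscle markers on the array, which include Mlc1 and Mlc2, 3 passed as higher. The fourth, sls, was at 33.1, 21.1, 82.4 and 181 on EC_pos and 326 on LB_pos (-1.51) and did not pass. Another probe set of sls went the other way, also without passing (1.85). The summed level of the 4 markers was lowest on array a.

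The myoblast and mesoderm list had few calls. Of 25 listed, 19 were on the array and 12 tested, 1 passed as higher and 1 as lower, and the median was -0.05. Both calls were lost without array c.

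Of basement membrane genes, 13 of 14 listed were on the array and 12 tested, and 5 passed as higher, 1 passed as lower and 6 did not pass, with a list median of 1.16. With array b, c or d also left out the higher counts were 8, 3 and 5. Collagen IV is the main scaffold of these sheets, and its chain vkg was at 517, 540.1, 1182 and 1093 on EC_pos and 46 on LB_pos, and its other chain Col4a1 at 619, 1560.4, 3978 and 4656 on EC_pos and 597 on LB_pos. The laminin chain LanB2 was at 930.0, 1137, 1438 and 1368 on EC_pos and 140.2 on LB_pos. For Col4a1, array a was near the larval value, and for vkg and LanB2 all EC_pos arrays were well above it. The differences without array a were 3.24 ± 0.50 for vkg, 2.81 ± 0.36 for LanB2 and 2.27 ± 0.56 for Col4a1 (adjusted p = 0.00463, 0.00205 and 0.0343, and 0.126 for Col4a1 without array c). The perlecan trol differed by 2.47 (adjusted p = 0.0841 without array c) and the nidogen Ndg by 2.15. The enzyme that went the other way was the peroxidase Pxn, made by blood cells, at 412, 38.5, 33.4 and 20 on EC_pos, 228 on LB_pos and 515 on LB_neg. Its difference was -1.75 ± 0.46 without array a (adjusted p = 0.0405), and array a lay above LB_pos. PPO1, the prophenoloxidase of crystal cells, was also brightest on array a, at 1517, 234, 202 and 211 on EC_pos and 20.1 on LB_pos, and passed as higher by 1.87 without it. Both calls were lost without array c (adjusted p = 0.0762 and 0.0632), and that of Pxn also without d (0.0853). The summed hemocyte markers, high on array a, include PPO1 and Pxn and so add no separate evidence. The part of blood cells in these values was not tested.

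Fat body and lipid carrier genes gave 5 higher and 0 lower of 16 tested, with 20 of 24 listed genes on the array and a list median of 0.34. The counts were 6, 4 and 5 with b, c or d also left out. The clotting protein fon was at 2411, 2949, 4212 and 5218 on EC_pos and 52.4 on LB_pos. The lipoprotein apolpp, the main lipid carrier of the hemolymph, was at 3266, 3892, 3590.4 and 3921 on EC_pos and 230.5 on LB_pos. Array a was the lowest EC_pos array in both and far above LB_pos, and a second probe set of apolpp also passed as higher. Transferrin (Tsf1), which binds iron, was at 489, 900.2, 1968 and 2236 on EC_pos and 36.5 on LB_pos, and the lipid transfer particle Apoltp at 1194, 2632, 1989 and 2362 on EC_pos and 553 on LB_pos. The differences without array a were 5.26 ± 0.41 for fon, 3.76 ± 0.32 for apolpp and 4.19 ± 0.53 for Tsf1 (adjusted p = 0.000233, 0.000336 and 0.00201), and the adjusted p with it was 0.0723, 0.0746 and 0.15. The summed fat body markers, above LB_pos on every EC_pos array, are mostly apolpp and so add no separate evidence.

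**Figure D3:**
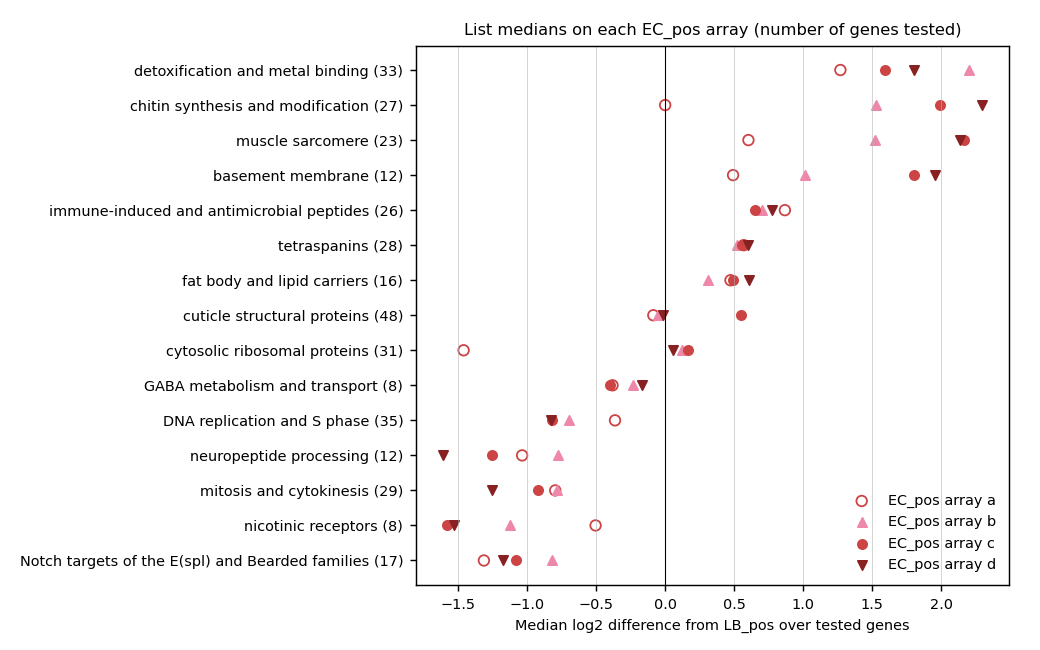
Median log2 difference from LB_pos over the tested genes of 15 lists (horizontal axis), with 1 symbol for each EC_pos array. Array a, the open circle, lies nearer to 0 than b, c and d for chitin, muscle and nicotinic receptor genes, at the low end for ribosomal proteins, and beside them for tetraspanins, fat body, mitosis and GABA metabolism genes.

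Some further genes of transport and signalling were higher. The list of the vacuolar proton pump, which acidifies vesicles and drives epithelial transport, had 15 of 17 genes on the array, all tested, and a median of 0.10 (-0.08 after quantile normalization), with 3 passing as higher. They were the subunit Vha55, at 768, 1901, 1962 and 1686 on EC_pos and 214 on LB_pos, Vha100-2 (2.73) and VhaM9.7-b (1.87), while the other 12 did not pass. Indy, a citrate transporter, was at 997, 1384, 1344 and 912 on EC_pos and 105 on LB_pos, a difference of 2.98 ± 0.40 (adjusted p = 0.00267). The filamin cher, a cross-linker of actin, was at 3577, 2979, 3282 and 4277 on EC_pos and 583 on LB_pos, a difference of 2.47. In the JNK and activity list 3 of 19 tested genes passed as higher and 1 as lower, beside 21 of 24 listed on the array. The Fos factor kay was among the higher, at 3765, 2458, 1420.4 and 1468 on EC_pos and 555 on LB_pos, and the kinase bsk, the fly JNK, was the lower one, at 5113, 1935, 1110.0 and 1428 on EC_pos and 6079 on LB_pos. Both calls were lost when array c was left out as well (adjusted p = 0.0957 and 0.0626). The secreted protease relative scaf was also higher, at 186, 372, 1768 and 3635 on EC_pos and 61.4 on LB_pos (adjusted p = 0.0432, or 0.14 without array c). Its other tested probe set differed by 0.63 and did not pass (adjusted p = 0.314). ImpL2, a secreted binder of insulin-like peptides, was at 1120.1, 5328, 7585 and 8203 on EC_pos and 1356 on LB_pos, and passed by 2.31 with array a below LB_pos. bnb had the same order, at 173, 832, 1251 and 1410.3 on EC_pos and 291 on LB_pos (adjusted p = 0.0251, or 0.0957 without array c).

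Some of the largest differences belonged to genes outside the lists. CG34166 was at 1232, 34682, 26688 and 28058 on EC_pos, 22 on LB_pos and 82.9 on LB_neg, and CG17738 at 13657, 30272, 44138 and 42629 on EC_pos and 205 on LB_pos. The mucin Muc26B was at 439.6, 1490.1, 3648 and 4158 on EC_pos and 12.4 on LB_pos. In all 3 array a was the lowest EC_pos array and far above both larval arrays. Their differences without array a were 8.62 ± 0.31, 7.22 ± 0.32 and 5.45 ± 0.57 (adjusted p = 1.89e-05, 4e-05 and 0.000782), and with it 7.48, 6.85 and 4.81 (adjusted p = 0.165, 0.0723 and 0.169).

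Some genes that passed lay next to each other. In the reference gene order, 12 runs of 3 or more adjacent genes passed in 1 direction, 11 higher and 1 lower, with 40 genes in all. The runs of 5 genes were CG7299, CG7296, CG7294, CG17108 and CG7300, with differences of 3.48 to 5.30, and CG13639, CG13640, CG7016, Srg1 and Elal, with 1.95 to 6.32. The chitinase-like genes Idgf1, Idgf2 and Idgf3 formed a run with differences of 2.70, 2.67 and 2.15 (adjusted p = 0.0633 for Idgf3 without array c), and Idgf2 and Idgf3 were below LB_pos on array a, at 546 and 1448, against 589.7 and 1572 on LB_pos. CG34398 stood with Tsp29Fa and Tsp29Fb, and CG8501 with Cpr49Ac and Cpr49Ad. The 1 lower run was Bub3, Cap-D2 and CG7582, between -1.69 and -1.23. When untested genes were skipped, a choice made after the data were seen, there were 21 runs, 20 of them higher, with 72 genes in all. These then included Tsp42Ed, Tsp42Ee, Tsp42Ef and Tsp42Eg, the P450 genes Cyp6a9, Cyp6a20 and Cyp6a8, and CG12310, CG13461, CG18649 and CG13460, the last 4 with differences of 5.61 to 6.87. Adjacent copies of a family may share probe sequence, which was not tested.

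Among the genes lower in EC_pos, Syp had the largest difference. Syp encodes an RNA-binding protein of the late temporal window of larval neuroblasts and was at 50, 18.1, 29.9 and 25.7 on EC_pos, under the offset on all 4 arrays, against 4352 on LB_pos and 7852 on LB_neg. The difference was -5.72 ± 0.47 with all 4 arrays (adjusted p = 0.0256) and -5.82 ± 0.38 without array a (adjusted p = 0.000119). With a kept, it did not pass without b, c or d (adjusted p = 0.349, 0.263 and 0.106). Of 21 listed temporal identity factors, 19 were on the array and 18 tested, 0 passed as higher and 4 as lower, and the list median was -0.37. With all 4 arrays the median over the tested members was -0.11, and 0.04 after quantile normalization. The ecdysone-regulated factor br was at 159, 279, 169.9 and 158 on EC_pos, 985 on LB_pos and 2404 on LB_neg. The eye and brain factor ey was at 1009, 885, 628 and 375 on EC_pos and 2694 on LB_pos. hb, the first factor of the embryonic series, was at 434, 116, 117 and 55.5 on EC_pos and 485 on LB_pos. A second tested probe set of br did not pass (adjusted p = 0.12). In br and ey the groups were well apart, whereas hb on array a was near LB_pos. The differences without array a were -2.05 ± 0.41 for br, -2.08 ± 0.46 for ey and -1.88 ± 0.47 for hb (adjusted p = 0.0159, 0.0223 and 0.0351), and without array c as well only Syp of the 4 passed (0.0711 for br, 0.0867 for ey and 0.073 for hb, which also failed without d at 0.0685).

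A few genes of neuroblasts and their daughters passed as lower. All 26 listed genes were on the array and 22 were tested, of which 0 passed as higher and 4 as lower, and the list median was -0.79. The lower counts were 11, 1 and 4 with b, c or d also left out. The homeodomain factor pros, which ends self-renewal in the daughter cell, was at 374, 234, 312 and 497 on EC_pos, 2054 on LB_pos and 3842 on LB_neg. Its carrier mira was at 798, 430.1, 266 and 371 on EC_pos and 1666 on LB_pos. nerfin-1, a zinc finger factor that holds new neurons in their state, was at 2057, 409.5, 222 and 365 on EC_pos, 1607 on LB_pos and 7268 on LB_neg. For pros and mira all EC_pos arrays were below LB_pos, and for nerfin-1 array a was above it. The differences were -2.44 ± 0.43 for pros, -2.09 ± 0.38 for mira and -2.14 ± 0.40 for nerfin-1 without array a (adjusted p = 0.00869, 0.00968 and 0.0114, and 0.058, 0.055 and 0.0545 when array c was left out too). A second probe set of nerfin-1 also passed as lower, and one of mira did not (adjusted p = 0.0979). The bHLH factor Sidpn was at 968, 742, 254 and 372 on EC_pos, 9259 on LB_pos and 1854 on LB_neg, a difference of -4.31 ± 0.51 (adjusted p = 0.00149). gcm, which directs glial fate, was at 151, 52.7, 52.9 and 61.8 on EC_pos, 499.9 on LB_pos and 3914 on LB_neg, a difference of -2.34 ± 0.40 (adjusted p = 0.00742). The summed neuroblast markers, which include mira, were lower on every EC_pos array than on LB_pos.

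Notch target genes gave the highest share of lower calls among lists of more than 10 tested genes. Notch signalling between neighbouring cells switches on the E(spl) repressors and the small Bearded-family proteins that feed back on the pathway. Of 24 listed genes, 18 were on the array and 17 tested, 2 passed as higher and 6 as lower, and the list median was -0.93. On all 4 arrays 7 lay at least 1 unit below LB_pos, beside 5.59% of all tested genes. The lower count was 8, 6 and 6 with b, c or d also left out, 6 with a common median, and the same 6 genes passed in all 3 fits of 2 arrays. Tom was at 144, 186, 92.6 and 144 on EC_pos, 2534 on LB_pos and 2002 on LB_neg. E(spl)m4-BFM was at 65.8, 67.8, 194 and 129 on EC_pos and 2209 on LB_pos, and E(spl)malpha-BFM at 273, 262, 209.6 and 236 on EC_pos and 2040.0 on LB_pos. In these Bearded-family genes array a lay in or next to the range of the other EC_pos arrays, all far under both larval arrays. The differences were -3.76 ± 0.42, -3.68 ± 0.47 and -2.86 ± 0.36 without array a (adjusted p = 0.00103, 0.00204 and 0.00187), and the adjusted p was 0.0784, 0.0866 and 0.101 with it.

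The repressor E(spl)m7-HLH was at 469.6, 371, 367 and 298 on EC_pos, 2362 on LB_pos and 5589.8 on LB_neg, and E(spl)mdelta-HLH at 118, 43.5, 26.8 and 24.1 on EC_pos and 559 on LB_pos. They differed by -2.60 and -2.85. The Bearded gene itself, Brd, differed by -2.11 ± 0.52 (adjusted p = 0.0343). The 2 members that passed as higher were the repressor hry and the protease inhibitor Kaz-m1, which lies in the E(spl) complex. hry was at 10256, 7912, 8614 and 8273 on EC_pos and 1881 on LB_pos, and Kaz-m1 at 506, 1537, 2998 and 3799 on EC_pos and 193 on LB_pos. Every EC_pos array exceeded LB_pos in both, by 2.10 and 3.43 on average without array a.

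A pair of hormone-related genes had large negative differences. ImpE2, a secreted protein induced by ecdysone, was at 26.4, 221, 154 and 167 on EC_pos, 4642 on LB_pos and 2961 on LB_neg, a difference of -4.33 ± 0.37 (adjusted p = 0.000331). Jhbp2, named as a juvenile hormone binding protein, was at 64.3, 56.7, 31.8 and 11 on EC_pos, 1516 on LB_pos and 497 on LB_neg, a difference of -4.21 ± 0.47 (adjusted p = 0.00114). Neither group of arrays overlapped the other in these genes. In the ecdysone list, with 24 of 32 genes on the array and 18 tested, 1 passed as higher and 3 as lower, and the median was -0.52.

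Polycomb and trithorax genes, which keep developmental genes off or on, gave 0 higher and 4 lower of 19 tested, with 20 of 25 listed on the array and a median of -0.56. The lower counts were 7, 1 and 2 when b, c or d was left out as well. Psc, a subunit of Polycomb repressive complex 1, was at 188, 125, 79.8 and 354 on EC_pos, 2106 on LB_pos and 714 on LB_neg. E(z), the histone methyltransferase of the second complex, was at 846, 1146, 707 and 1125 on EC_pos and 3413 on LB_pos. The EC_pos arrays were all below both larval arrays in these genes, and the differences were -3.34 ± 0.60 and -1.76 ± 0.37 (adjusted p = 0.00978 and 0.0196). The partner Pcl differed by -1.33 and the methyltransferase trx by -1.69, and without array c only Psc still passed (adjusted p = 0.0782 for E(z), 0.125 for Pcl and 0.0738 for trx). Pcl and trx were also lost without d (0.0752 and 0.0513). With a floor in place of the offset none of Psc, E(z), Pcl and trx passed, and Pcl also fell short with a common median.

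Among cell division genes the calls were all in the lower direction. Of 38 listed mitosis and cytokinesis genes, 31 were on the array and 29 tested, 0 passed as higher and 8 as lower, and the median was -1.07. Of 41 listed genes of DNA replication and S phase, 35 were on the array and all 35 were tested, 0 passed as higher and 4 as lower, and the median was -0.89. With b, c or d also left out the lower counts were 14, 2 and 5 for mitosis and 17, 0 and 2 for S phase, and with a common median they were 5 and 1. These counts thus changed with the fit of 2 arrays in use and with scaling. Lower calls over all tested probe sets also rose without b and fell without c or d and with a common median, as given above. Such changes were therefore not particular to these genes. Condensin, the ring that compacts chromosomes, was represented by SMC2, glu and Cap-G. SMC2 was at 794, 204, 195 and 271 on EC_pos, 1418 on LB_pos and 3088 on LB_neg. glu, the other ATPase of the ring, was at 1171, 459.6, 442 and 449 on EC_pos and 2224 on LB_pos, and Cap-G at 227, 259.5, 195 and 297 on EC_pos and 1199.6 on LB_pos. All EC_pos arrays lay below LB_pos, with array a highest for SMC2 and glu. The differences were -2.42 ± 0.37, -2.18 ± 0.33 and -2.06 ± 0.39 without array a (adjusted p = 0.00459, 0.00423 and 0.0116, and 0.0573 for Cap-G without array c), and a second, dim probe set of Cap-G did not pass (adjusted p = 0.915).

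Among the other division genes, the spindle motor ncd was at 189, 379, 376 and 397 on EC_pos and 1669.9 on LB_pos, a difference of -1.98. The cytokinesis regulator tum was at 384, 384, 469 and 425 on EC_pos and 1591 on LB_pos, a difference of -1.78. The replicative helicase subunit Mcm3 was at 51.2, 151, 82.4 and 139 on EC_pos, 485 on LB_pos and 987 on LB_neg, a difference of -1.62 ± 0.43 (adjusted p = 0.0429). dUTPase, which keeps uracil out of DNA, was at 413, 448, 508 and 459 on EC_pos and 1520.3 on LB_pos, a difference of -1.58 ± 0.34 (adjusted p = 0.021). These 4 lay below LB_pos on every EC_pos array, array a included, and lost their calls without array c (adjusted p = 0.0522, 0.0608, 0.103 and 0.075), Mcm3 also without d (0.0568). The spindle checkpoint protein mad2 and the replication licensing factor dup differed by -1.57 and -1.83, and both lost the call without array c (adjusted p = 0.0896 and 0.089), mad2 also without d (0.101). CycE, the cyclin of S phase entry, was at 451, 122, 61.9 and 27.1 on EC_pos and 386 on LB_pos, so that array a was above LB_pos. Its call (adjusted p = 0.0474) was lost without array c or d and with a common median (0.114, 0.0733 and 0.0662). Mcm3, mad2, dup and CycE each fell short with a common median, with no filter and after quantile normalization.

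Several receptor subunits of fast transmission were lower in EC_pos. Of 6 listed GABA receptor genes, 5 were on the array and 2 were bright enough to test, and both passed as lower. Rdl was at 218, 1192, 1310.2 and 1322 on EC_pos, 5595 on LB_pos and 301 on LB_neg, and Lcch3 at 4949, 713, 391 and 461 on EC_pos, 2212 on LB_pos and 1437 on LB_neg. Rdl was lower on all 4 EC_pos arrays and lowest on a, whereas Lcch3 on array a was the highest value of the 6 arrays. The differences were -2.09 ± 0.32 for Rdl and -2.02 ± 0.41 for Lcch3 without array a (adjusted p = 0.00444 and 0.0156, and 0.0729 for Lcch3 without array c), and -2.66 and -1.23 with it (adjusted p = 0.332 and 0.71). Of 10 listed nicotinic receptor subunits, which receive acetylcholine, 9 were on the array and 8 tested, 0 passed as higher and 3 as lower, and the median was -1.47. nAChRbeta1 was at 734, 271, 364 and 246 on EC_pos and 1199 on LB_pos, nAChRalpha3 at 81.6, 108, 143 and 309 on EC_pos and 805 on LB_pos, and nAChRalpha5 at 74.9, 232, 199 and 196 on EC_pos and 678 on LB_pos. All EC_pos arrays were below LB_pos in these subunits, with differences of -1.87, -1.93 and -1.48 without array a, and 0 of the 3 passed without array c (adjusted p = 0.0548, 0.126 and 0.104). nAChRalpha5 was also lost without d (0.0975). With a common median nAChRalpha3 and nAChRalpha5 differed by -1.70 and -1.26 and did not pass. Both also fell short with no filter, and nAChRalpha3 after quantile normalization.

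A few transmitter and vesicle genes passed. ChAT, which makes acetylcholine, had a difference of -1.48 ± 0.42, and its other probe set did not pass (adjusted p = 0.15). The vesicle fusion protein nSyb had a difference of -1.68 ± 0.37. Both of these lower calls, whose levels stand among the neuron markers, were lost without array c (adjusted p = 0.135 and 0.0748) and without d (0.0546 and 0.0513). With a common median ChAT differed by -1.24 and did not pass, nor did cpo, described below, at -1.18. In the general neuron list, with 21 of 27 genes on the array and 18 tested, 2 passed as higher and 3 as lower, and the median was -0.72. With b, c or d also left out the higher counts were 2, 0 and 2 and the lower counts 8, 0 and 2. The RNA-binding protein cpo was among the lower, at 67.3, 321, 448 and 503 on EC_pos and 1199 on LB_pos (adjusted p = 0.0477, or 0.118 without array c and 0.0604 without d), and its 2 other tested probe sets, at -0.55 and -0.16, did not pass (adjusted p = 0.493 and 0.83). The adhesion protein Nrg, found in neurons and epithelia, was among the higher, at 357, 4053, 6312 and 5812 on EC_pos and 1262 on LB_pos, with array a below LB_pos (adjusted p = 0.00713, or 0.0623 without array c). The calcium-binding AnxB9 was the higher gene of the synaptic vesicle list, at 2300.3, 9937, 9706 and 11335 on EC_pos and 1295 on LB_pos, a difference of 2.94 ± 0.29 (adjusted p = 0.000582). Eaat2, a transporter of acidic amino acids, was at 4193, 817, 285 and 346 on EC_pos and 3184 on LB_pos, so that array a lay above LB_pos and b to d below it (adjusted p = 0.0134, or 0.0664 without array c). The voltage-gated potassium channel sei had the same order, at 3986, 827, 373 and 453 on EC_pos and 2767 on LB_pos (adjusted p = 0.0138, or 0.0685 without array c).

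Genes of neuropeptide processing had lower calls only, and peptide precursors had few calls in either direction. Of 14 listed genes of neuropeptide processing, 12 were on the array and tested, 0 passed as higher and 3 as lower, and the median was -1.18. IA-2, a membrane protein of dense-core vesicles, was at 44.2, 59.3, 69 and 117 on EC_pos, 620.1 on LB_pos and 61.2 on LB_neg. 7B2, the helper of a prohormone convertase, was at 573, 1626, 1503 and 1065 on EC_pos and 4927 on LB_pos. Both were lower on every EC_pos array, with differences of -2.34 ± 0.47 and -1.80 ± 0.35 without array a (adjusted p = 0.0159 and 0.0137, and 0.0547 and 0.0705 without array c), and another probe set of 7B2 did not pass (adjusted p = 0.251). Of 40 listed peptide precursors, 30 were on the array and 26 tested, with a median of -0.29. In each direction 3 passed (11.5%), beside 9.3% higher and 5.28% lower over all tested genes. The higher share was thus close to that of all genes. Akh, the adipokinetic hormone that mobilises lipid, was at 1993, 2631, 1464 and 1553 on EC_pos and 330.5 on LB_pos, and NPF, a feeding-related peptide, at 91.2, 1902, 454 and 480.0 on EC_pos and 38.8 on LB_pos. Nplp2 was at 7181, 15886, 21808 and 21611 on EC_pos and 4133 on LB_pos. These were the higher ones, by 2.28, 3.13 and 2.23. The lower ones were Nplp1, at 411, 1037, 1037 and 901 on EC_pos and 2536 on LB_pos, the ion transport peptide ITP, at 502, 894, 543 and 428 on EC_pos and 1947 on LB_pos, and Nplp3, at 86.3, 153, 173 and 254 on EC_pos and 775 on LB_pos. With each array scaled to a common median, Nplp1 and ITP differed by -1.07 and -1.39 and did not pass. NPF and the 3 lower precursors lost their calls without array c (adjusted p = 0.0658 for NPF, 0.111 for Nplp1, 0.138 for ITP and 0.089 for Nplp3), Nplp1 and ITP also without d (0.109 and 0.0829).

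Several genes lower in EC_pos were bright on LB_pos and dim on LB_neg. The sodium-calcium exchanger Nckx30C was at 593, 987, 459.6 and 731 on EC_pos, 6859.5 on LB_pos and 547 on LB_neg, a difference of -3.21 ± 0.44 (adjusted p = 0.00267), and a dimmer probe set did not pass (adjusted p = 0.416). The vesicular transporter prt was at 13.8, 59.4, 41.4 and 32.7 on EC_pos, 532 on LB_pos and 44.5 on LB_neg, a difference of -2.59 ± 0.47 (adjusted p = 0.0101). The factor zfh1, which acts in peptide and motor neurons and in mesoderm, was at 44, 15.2, 47.7 and 73.7 on EC_pos, 425 on LB_pos and 38.6 on LB_neg (adjusted p = 0.0252, or 0.0633 without array c). In these 3 genes, as in IA-2, the EC_pos arrays were nearer to LB_neg than to LB_pos. Others were intermediate on LB_neg. The peptidase Ance was at 689, 920.1, 1189 and 1521 on EC_pos, 7870.4 on LB_pos and 2625 on LB_neg, and the factor Sox14 at 596, 606, 476 and 899 on EC_pos, 4126 on LB_pos and 1386 on LB_neg. The nuclear pore protein Nup54 differed by -2.68 (adjusted p = 0.00941, or 0.0545 without array c), and its second tested probe set did not pass (-1.25, adjusted p = 0.0935). The scaffold PICK1 differed by -2.86 and the serpin Spn43Aa, under the offset on all EC_pos arrays and at 505 on LB_pos, by -2.92. Ets65A, an ETS-family factor, was bright on both larval arrays, at 202, 54.2, 86.8 and 48.4 on EC_pos, 1899.6 on LB_pos and 2126 on LB_neg, with a difference of -4.08 ± 0.41 (adjusted p = 0.000667) that its second tested probe set did not show (adjusted p = 0.48). Hsp27 was the 1 heat shock gene of 15 tested that passed, as lower, at 2684, 6743, 6491 and 5888 on EC_pos, 19586 on LB_pos and 29927 on LB_neg, and its adjusted p was 0.00576, or 0.0651 without array c.

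Other lists gave few calls. Of 9 listed genes of GABA metabolism and transport, all were on the array and 8 were tested, and 0 passed in either direction, with a median of -0.30. 1 of them passed as lower in the fit without a and b. All 26 proteasome genes on the array were tested and 0 passed, with a median of -0.58, although 18 passed as lower without a and b. Cytosolic ribosomal proteins gave 2 higher and 0 lower of 31 tested, and the respiratory chain 1 and 1 of 35, with medians of 0.16 and 0.10. On array a alone the median over the tested genes was -1.46 for ribosomal proteins and -0.91 for the respiratory chain, against 0.06 and -0.03 on array d. Axon guidance and adhesion genes gave 0 higher and 2 lower of 32 tested, the receptor drl (-1.75) and the adhesion protein klg (-2.41), and neuronal identity factors gave 0 and 3 of 28. Without array c, 0 genes of either list passed as lower (adjusted p = 0.0841 for drl and 0.0736 for klg). A p-value that missed the threshold does not show equal levels, and LB_pos remained a single array.

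**Figure D4:**
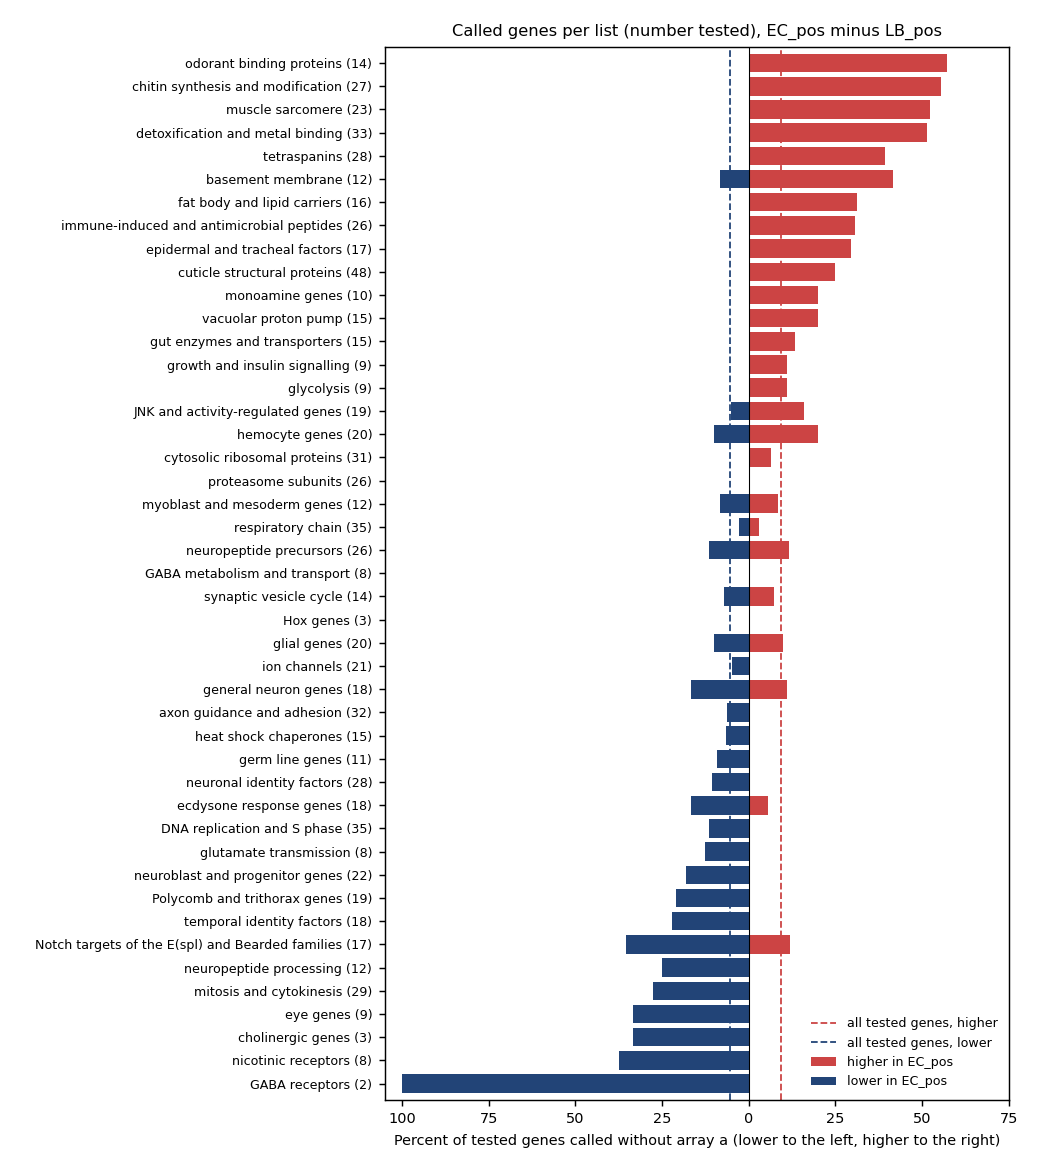
Share of tested genes in each of 45 lists that passed without array a, with genes higher in EC_pos to the right in red and genes lower in EC_pos to the left in blue, in percent, and the number tested in brackets. Dashed lines mark the shares over all tested genes, 9.3% higher and 5.28% lower. Odorant binding, chitin, muscle and detoxification genes exceed 50% higher, and the bar of 100% for GABA receptors rests on 2 genes. The odorant binding bar covers only the 14 tested genes, and 18 others on the array were too dim to test. A gene dim on LB_pos was tested only where another array, such as EC_pos, was bright.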

How the data were processed

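The 6 arrays of sorted fly cells gave 1 value per probe set. The deposited intensity values were linear and already scaled by the authors, with a trimmed mean of 496 to 497 on every array when 2% was trimmed from each end, as the values show; which software and settings made them, and whether detection calls were made, is not given in the sources used here. Controls (44 probe sets) were set aside. Of the other 13966, 12443 were paired with 1 gene by the platform annotation, 327 with several and 1196 with none.

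An offset of 53.6, the 25th percentile of all intensities, was added before log2. The 9635 probe sets above the pooled median (197.35) on at least 1 array were tested with limma 3.58.1 in R 4.3.3 (3 group means, eBayes with an intensity trend, Benjamini-Hochberg). The spread of EC_pos stood in for that of LB_pos, a single array. Residual degrees of freedom were 3 with 4 arrays, 2 without array a and 1 in the fits of 2 EC_pos arrays. The number of arrays limits the precision.

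A gene is its brightest probe set. Genes were named if called with all 4 arrays, if among the 30 largest differences in each direction without array a, if among up to 6 called members of a list in each direction, if a marker, or if in a run of neighbours. For a list with fewer than 6 called members, up to 6 tested members with the largest difference could be named as well. Neighbours follow the RefSeq gene order. The members, the lists and the rule were chosen with earlier results of these data known. The alternatives were other offsets, a floor, other filters, 2 scalings, other variance models, the mean of a gene's probe sets and leaving out each array. List counts under them, medians over untested members and runs that skip untested genes were added after the data were seen.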

Additional observations from a re-analysis of the deposited data

Results flagged for a closer look

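Of 155 genes described in the text, 29 had 1 EC_pos array whose gap to the nearest of the other 3 exceeded 0.829 of the group's range in intensity, where chance flags about 1 in 20 groups not chosen by their values. Most of these genes were named because they passed the fit on b, c and d, which favours genes on which those 3 lie close together, so that rate is no measure for them. Array a was the low one in 18 genes. Among genes higher in EC_pos, array a measured 2300.3 for AnxB9, 1232.1 for CG34166, 122.4 for Cpr11A, 44.9 for Cpr49Ad, 490.3 for Cyp6a9, 711.5 for EbpIII, 357.3 for Nrg, 422.0 for Obp99c, 34.1 for Obp99d, 2044.2 for Phk-3, 768.2 for Vha55 and 432.8 for obst-E. Among genes lower in EC_pos it measured 2684.2 for Hsp27, 410.9 for Nplp1, 217.9 for Rdl, 74.9 for nAChRalpha5, 53.2 for nSyb and 188.6 for ncd.

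Array a was the high one in 5 genes, at 1516.8 for PPO1, 411.6 for Pxn, 150.6 for gcm, 1171.1 for glu and 1832.9 for y. Array b was high in 3 genes, at 7426.1 for Obp56h, 279.0 for br and 3813.4 for the neuronal sodium pump subunit nrv3, and low for pio, at 2081.7. Array c was high for the serpin Spn43Aa, at 52.5, which is under the offset, and array d was low for Tsp42Eg, at 597.9.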

How the results depend on the processing

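With all 4 EC_pos arrays, the 3 calls became 12 with the offset at the 10th percentile, 0 at the 50th (1400 at an unadjusted p under 0.05 in limma), 6 with no filter and 7 after quantile normalization, and ranged from 0 to 1359 as each array was left out. Without array a, the 1359 calls became 864 with a floor in place of the offset, and ranged from 534 without c to 3458 without b, with 1052 without d. The count past 1 log2 unit on every array was 1096, or 244 at 2 units, and ranged from 1240 to 1850 as each array was left out, the highest without a. The other alternatives for these 3 totals stayed within 1.5 times of them, but the lower part of the last moved from 567 to 304 with a common median, and that of the 1359 calls from 529 to 279. No difference of a described gene changed sign where it was called. In the fits without array a, described genes fell under the threshold in 67 gene-by-setting pairs when b, c or d was left out and in 91 under the other settings, and passed anew in 4 and 3. The causes were not tested. Most of the calls lost when 1 array was left out were lost without c, 53 genes in all. Among them were several of the cell division, receptor and neuropeptide genes named in the report. SMC2, glu, Rdl, Akh and Nplp2 kept their calls without c. With a floor in place of the offset, genes such as Psc, Brd, TpnC73F, Akh, GstD2, Obp56d and Strn-Mlck lost theirs. No paired analysis was possible because LB_pos is 1 array and shares only 1 letter with EC_pos. A planned median of protein length was not run, since no protein table was used here. The files used hold no detection flags, so the depth limit for dim genes is the offset.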
